A study of Mus musculus with 10 samples.

Results

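Igf2, H19, Igf2r and Airn form a pair of imprinted loci of the mouse, and their transcripts were followed on 8 array probe sets in livers that had lost Dicer1 and in control livers. The members were found by gene symbol in the platform annotation, which gave 2 probe sets for Igf2, 1 for H19, 2 for Igf2r and 3 for Airn among the 25958 probe sets that were not array controls. These are 4 genes, beside 12366 genes on the array that have a probe set to themselves. The H19 probe set also carries the symbol Mir675, a microRNA gene that lies inside H19, and is called the H19 probe set here.

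The mutant mice carried loxP-flanked Dicer alleles on both chromosomes and Cre recombinase driven by Afp, the gene of the fetal serum protein alpha-fetoprotein (5 livers). The control mice are described in the labels only as controls, without their alleles (5 livers). All 10 mice were 28 days old, had fasted for 5 hours and were of mixed strain, and each liver was 1 array of whole-tissue RNA. Afp regulatory sequences are active in the fetal liver, so recombination in this model is limited to cells that used them. In whole tissue, fewer cells of a type and less RNA per cell cannot be told apart.

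Igf2, on distal chromosome 7, encodes a fetal growth factor and is expressed from the paternal allele. H19, its neighbour, encodes a noncoding RNA and is expressed from the maternal allele, and both genes share enhancers and are abundant in fetal liver before they are silenced after birth in the mouse. Igf2r, on proximal chromosome 17, encodes the receptor that carries IGF2 to the lysosome for breakdown and sorts lysosomal enzymes tagged with mannose 6-phosphate. It is expressed mainly from the maternal allele, and Airn, a noncoding RNA transcribed across it in the opposite orientation from the paternal allele, silences the paternal copy. The arrays measure total RNA and do not separate parental alleles.

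Both chromosome 7 transcripts host microRNAs, which Dicer is needed to mature and which these arrays do not measure. The mature sequences are shown because Dicer1 was deleted and the host transcripts are the members with the largest differences. They are given 5′ to 3′ from RefSeq on GRCm38.p6, with the seed (bases 2 to 8) in capitals. All lie on the minus strand of chromosome 7 inside the span of their host, miR-675 in H19 and miR-483 in Igf2. The 4 mature forms have 4 different seeds.
mmu-miR-675-5p (chr7:142577112-142577133): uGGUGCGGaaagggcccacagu
mmu-miR-675-3p (chr7:142577078-142577099): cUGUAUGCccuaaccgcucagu
mmu-miR-483-5p (chr7:142654968-142654989): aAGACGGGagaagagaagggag
mmu-miR-483-3p (chr7:142654932-142654952): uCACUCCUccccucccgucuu

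The start regions are shown because the transcripts of both loci were compared between the groups, and because the chromosome 17 pair overlaps. RefSeq windows on GRCm38.p6, running from 250 bases before to 50 bases after a transcript start, were held for 3 of the 4 genes, with 4 windows for Igf2 and 1 each for Igf2r and Airn. Capitals mark GGGCGG on either strand, the core of the GC box bound by Sp1-type factors, with overlapping copies counted. It occurs in 35.7% of all 32851 windows. Among the 4 Igf2 windows 2 hold it, and the window with the most copies has 2 on the minus strand of chromosome 7. The Igf2r window has 3 copies and the Airn window 1.
Igf2 (chr7:142657447-142657746, minus strand): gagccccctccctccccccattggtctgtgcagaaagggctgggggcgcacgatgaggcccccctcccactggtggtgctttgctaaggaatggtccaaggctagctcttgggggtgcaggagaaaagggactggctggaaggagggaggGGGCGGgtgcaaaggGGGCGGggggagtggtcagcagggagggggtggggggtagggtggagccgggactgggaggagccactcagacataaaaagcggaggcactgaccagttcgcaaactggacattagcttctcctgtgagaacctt
Igf2r (chr17:12769657-12769956, minus strand): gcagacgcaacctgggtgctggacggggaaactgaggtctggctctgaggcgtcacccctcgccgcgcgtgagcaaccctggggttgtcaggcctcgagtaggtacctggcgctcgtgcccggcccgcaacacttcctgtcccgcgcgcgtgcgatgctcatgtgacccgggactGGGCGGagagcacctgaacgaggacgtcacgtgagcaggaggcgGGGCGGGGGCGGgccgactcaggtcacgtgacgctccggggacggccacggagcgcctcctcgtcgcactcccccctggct
Airn (chr17:12741061-12741360, plus strand): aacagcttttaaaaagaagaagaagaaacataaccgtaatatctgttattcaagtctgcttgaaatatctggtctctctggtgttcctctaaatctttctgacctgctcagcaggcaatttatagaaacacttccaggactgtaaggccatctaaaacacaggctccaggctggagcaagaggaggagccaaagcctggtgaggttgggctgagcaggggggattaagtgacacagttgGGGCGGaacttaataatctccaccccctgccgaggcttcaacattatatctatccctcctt

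The Igf2r window lies within the annotated span of Airn, and the Airn window within that of Igf2r. CG dinucleotides, the sites of DNA methylation, number 34 in the Igf2r window, a count that 7.73% of all windows reach, and 3 in the Airn window, against a median of 7. The 4 Igf2 windows hold 2, 14, 24 and 7, the last being the one printed. Methylation and factor binding were not measured, and a match is only a match of letters.

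Values are the authors' deposited log2 levels, and differences are mutant minus control on that scale. A probe set was called at a Benjamini-Hochberg adjusted p under 0.05 from limma over all probe sets. Values under 3.60, the 25th percentile of all values, are named as such, since differences there depend on how background was treated before deposit. Dicer1 checked the labels, with levels of 5.42 to 5.94 in mutant and 7.99 to 8.10 in control livers on 1 probe set (adjusted p = 4.1e-05), and of 6.97 to 7.20 in mutant and 7.91 to 8.18 in control livers on the other (adjusted p = 0.000678). On component 1 of a principal component analysis of all probe sets, 4 mutant arrays lay between 33.4 and 62.2 and the controls between -45.8 and -25.6. Mutant replicate 5 stood apart from its group at -15.4, although its Dicer1 levels, 5.84 and 6.98, were as low as those of the other mutants. Among controls, replicate 1 lay nearest to the mutants. The member differences that passed are therefore also given without these arrays.

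Igf2, H19 and Igf2r were higher in mutant livers, and Airn did not pass the test. Of the 8 probe sets, 5 rose and 0 fell, where 5.80% of all probe sets rose and 7.39% fell. The same 5 had mutant and control values that did not overlap, as did 5.00% of all probe sets in this direction.

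**Figure D1:**
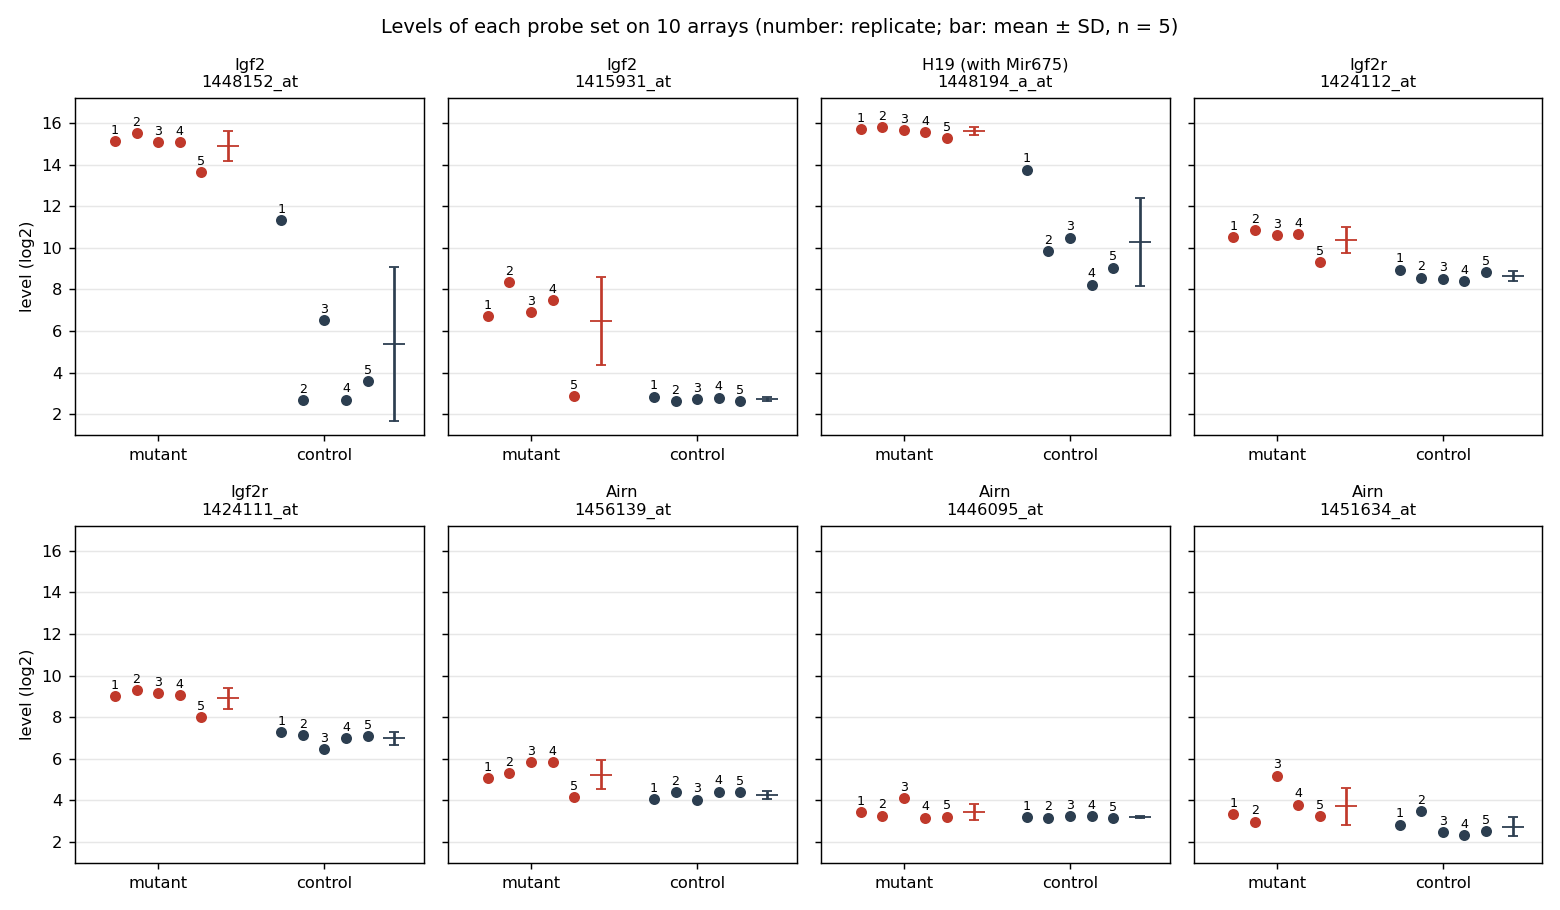
Level of each probe set (log2, vertical axis) on the 5 mutant and 5 control arrays, numbered by replicate, with the mean and SD of each group beside the points. Igf2 and H19 mutants sit above all controls, control replicate 1 is the highest control for both, and mutant replicate 5 is the lowest mutant on all panels for Igf2, H19 and Igf2r.

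Igf2 had the largest increase of all 25958 probe sets on the array in this fit. Its brighter probe set, 1448152_at, had log2 levels of 15.13, 15.49, 15.09, 15.07 and 13.64 in mutant replicates 1 to 5, against 11.34, 2.69, 6.52, 2.70 and 3.59 in control replicates 1 to 5. Every mutant lay above every control, and the controls were spread far more widely than the mutants. The means were 14.88 ± 0.72 in mutant and 5.37 ± 3.69 in control livers (SD, n = 5 each), a difference of 9.52 (95% confidence interval 6.01 to 13.02, limma adjusted p = 0.00982). Of the controls, 3 lay under 3.60, so no fold is given for this probe set. Without control replicate 1 and mutant replicate 5 the difference was 11.32.

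The other Igf2 probe set, 1415931_at, separated mutant replicate 5 from the rest of its group. It had log2 levels of 6.73, 8.36, 6.93, 7.47 and 2.87 in mutant replicates 1 to 5, against 2.85, 2.64, 2.74, 2.81 and 2.63 in control replicates 1 to 5. All controls and mutant replicate 5 lay under 3.60, and mutant replicate 5 exceeded the highest control by less than any other mutant did. The difference was 3.74 (SE 0.88, limma adjusted p = 0.0267). Its call was lost without any 1 array other than mutant replicate 5 (adjusted p from 0.0530 to 0.0659), and without mutant replicate 5 the difference was 4.64 (limma adjusted p = 0.000133).

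H19 was the ninth largest increase of all probe sets and the member with the narrowest spread among mutants. Its probe set, 1448194_a_at, had log2 levels of 15.71, 15.78, 15.64, 15.56 and 15.28 in mutant replicates 1 to 5. The controls stood at 13.75, 9.83, 10.48, 8.23 and 9.05. No control reached the mutant range, and control replicate 1 was again the highest control. The means were 15.59 ± 0.20 in mutant and 10.27 ± 2.12 in control livers (SD, n = 5 each), a difference of 5.33 (95% confidence interval 3.34 to 7.31, limma adjusted p = 0.00998). The highest value on any array was 16.65, and differences among levels this high can be compressed. Without control replicate 1 and mutant replicate 5 the difference was 6.28.

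Igf2 and H19 ranked the livers alike. After each group's mean was removed, the H19 probe set and the brighter Igf2 probe set had a Pearson correlation of 0.95 over 10 arrays, and of 0.94 without control replicates 1 and 2, the farthest from their group on Igf2. Control replicate 1 was the highest and control replicate 3 the next among controls for both genes, while the order of control replicates 2, 4 and 5 differed between the genes. Among mutants, replicate 2 was the highest and replicate 5 the lowest for both. The same correlation was 0.11 between H19 and the dimmer Igf2 probe set, and 0.22 between the Igf2 probe sets. These are descriptions, since the points share arrays and their normalization.

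**Figure D2:**
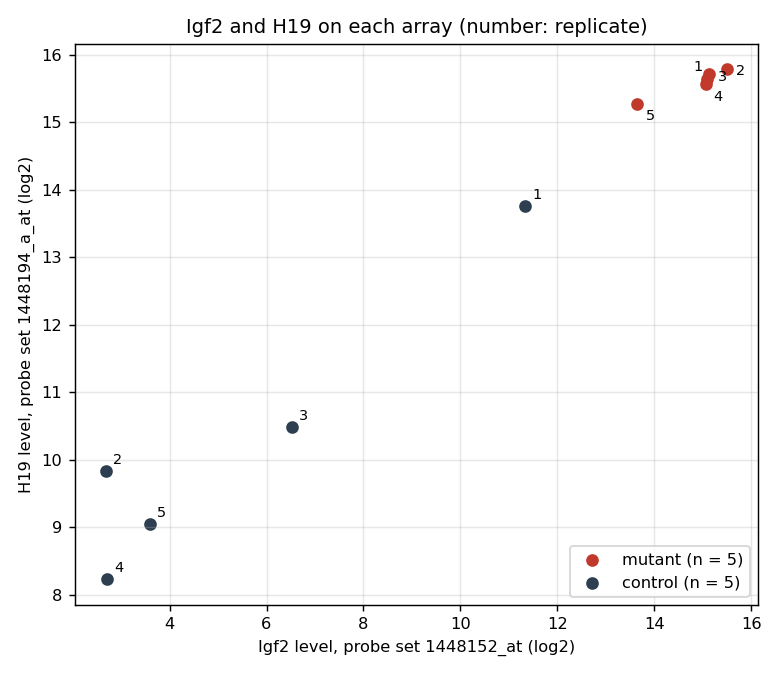
Igf2 level on its brighter probe set (log2, horizontal axis) against H19 level (log2, vertical axis), 1 point for each array, numbered by replicate. The mutants lie at the upper right, control replicate 1 lies between the groups at 11.34 and 13.75, and the other 4 controls reach at most 6.52 for Igf2 and 10.48 for H19.

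Mutant replicate 5, and control replicate 1 as the control nearest to the mutants, were both far along the log2 difference of H19 and of the brighter Igf2 probe set. Taking the mean of control replicates 2 to 5 as 0% and the mean of mutant replicates 1 to 4 as 100% on the log2 scale, mutant replicate 5 reached 86.3% for Igf2 and 93.7% for H19. Control replicate 1 reached 66.0% for Igf2 and 69.4% for H19. Over 1054 other probe sets that were called without these arrays with a difference of at least 1, mutant replicate 5 had a median of 27.9% (quartiles 12.6% and 46.0%) and control replicate 1 a median of 6.58% (quartiles -9.32% and 25.6%). Of these 1054, 34 exceeded Igf2 and 25 exceeded H19 in mutant replicate 5, and 52 and 45 did so in control replicate 1. On the dimmer Igf2 probe set the same arrays reached 3.51% and 3.13%. The mutant levels of both transcripts lie near the highest value on the arrays, 16.65, and the part of this in the shares was not tested. The shares are of log2 differences and not of RNA amounts. A given gap in log2 units leaves a larger share where the difference is larger, and the 1054 probe sets were not matched for size of difference. For Igf2, control replicate 1 lay at 11.34, against a mean of 15.20 in mutant replicates 1 to 4. Mutant replicate 5 lay 1.56 log2 units below the mean of the other mutants on the brighter Igf2 probe set and 0.40 units below it for H19.

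Igf2r rose on both probe sets, by about the same amount. Probe set 1424112_at had log2 levels of 10.50, 10.84, 10.62, 10.67 and 9.31 in mutant replicates 1 to 5, against 8.96, 8.57, 8.53, 8.40 and 8.82 in control replicates 1 to 5. The groups did not overlap, and mutant replicate 5 lay nearer to the controls than to the other mutants. The means were 10.39 ± 0.62 in mutant and 8.65 ± 0.23 in control livers (SD, n = 5 each), a difference of 1.73 (95% confidence interval 1.12 to 2.35, limma adjusted p = 0.00884), or 3.33-fold. Probe set 1424111_at had log2 levels of 8.99, 9.31, 9.14, 9.04 and 8.01 in mutant replicates 1 to 5, against 7.29, 7.13, 6.47, 6.99 and 7.09 in control replicates 1 to 5. The difference there was 1.91 (95% confidence interval 1.34 to 2.47, limma adjusted p = 0.00578), or 3.75-fold.

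In mutant replicate 5 the Igf2r probe sets reached 35.0% and 49.5% of the difference of the other mutants, on the scale used above for Igf2. Control replicate 1 reached 18.2% and 16.7%. These shares were exceeded by 411 and 227 of the 1054 probe sets in mutant replicate 5, and by 352 and 370 in control replicate 1. Without both arrays the Igf2r differences were 2.08 and 2.20. Igf2r and the brighter Igf2 probe set had correlations of 0.41 and 0.23 over 10 arrays after removal of group means. For the dimmer Igf2 probe set, 1415931_at, they were 0.93 and 0.84, and 0.54 and 0.28 without mutant replicates 5 and 2.

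Airn levels were low, and the probe sets differed in how they placed the livers. Its brightest probe set, 1456139_at, had log2 levels of 5.07, 5.30, 5.83, 5.84 and 4.17 in mutant replicates 1 to 5, against 4.07, 4.40, 4.04, 4.43 and 4.40 in control replicates 1 to 5. Mutant replicates 1 to 4 lay above all controls, and mutant replicate 5 lay among them. The difference of 0.98 did not pass (95% confidence interval 0.30 to 1.65, limma adjusted p = 0.0603). Without mutant replicate 5 it was 1.24 and passed (limma adjusted p = 0.00247).

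The remaining Airn probe sets were mostly under 3.60. Probe set 1451634_at ran from 2.98 to 5.19 in mutant and from 2.35 to 3.47 in control livers, a difference of 0.98 (limma adjusted p = 0.149). Probe set 1446095_at ran from 3.17 to 4.11 in mutant and from 3.16 to 3.24 in control livers, a difference of 0.24 (limma adjusted p = 0.388). Mutant replicate 3 was the highest array on both. Airn is transcribed antisense to Igf2r, and no source used here gives the strand that each probe set reads, so signal of 1 gene on a probe set of the other was not tested.

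The loci were set beside their measured neighbours, in the order of the genes on the chromosome. Of 11 measured genes listed for distal chromosome 7, 2 rose and 0 fell, with a median difference of 0.01, where 7.29% of all 12366 genes rose, 9.56% fell and the median was -0.01. Without mutant replicate 5, alone or together with control replicate 1, 2 rose and 2 fell. The nearest measured genes did not pass over all arrays. Mrpl23, a mitochondrial ribosomal protein gene on the H19 side, averaged 9.71 ± 0.42 in mutant and 10.26 ± 0.13 in control livers (SD, n = 5 each), a difference of -0.56 (limma adjusted p = 0.0751), and mutant replicate 5 was its highest mutant at 10.36. Tspan32, a tetraspanin gene on the Igf2 side, stayed under 3.60 on all arrays, with a difference of 0.00 (limma adjusted p = 0.986). Ins2, which lies next to Igf2, was not analysed here.

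The neighbours that rose belong to the second imprinted domain of distal chromosome 7. Cdkn1c, a maternally expressed cell cycle inhibitor, ran from 7.10 to 9.22 in mutant and from 5.88 to 6.11 in control livers. Its lowest mutant was replicate 5, as for Igf2 and for several other raised genes named below, and the groups did not overlap (difference 2.24, limma adjusted p = 0.00728). Kcnq1ot1, the antisense noncoding RNA of that domain, ran from 6.71 to 7.13 in mutant and from 5.83 to 6.64 in control livers. Its difference was 0.62 (limma adjusted p = 0.0291), and the call was lost in 6 of 10 fits that left out 1 array, those without control replicate 1, control replicate 5 or 1 of mutant replicates 1 to 4, with adjusted p up to 0.0705.

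Around Igf2r, 0 of 4 measured genes of the list passed in either direction by limma at the adjusted threshold, and 0 had an unadjusted p under 0.05. Without mutant replicate 5, alone or together with control replicate 1, 1 was called lower. Plg, the plasminogen gene and a liver product, had levels of 14.81 ± 0.07 in mutant and 14.87 ± 0.05 in control livers (SD, n = 5 each). Mas1, a G protein-coupled receptor gene next to Igf2r and Airn, had levels of 5.19 ± 0.44 in mutant and 4.91 ± 0.25 in control livers (SD, n = 5 each).

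**Figure D3:**
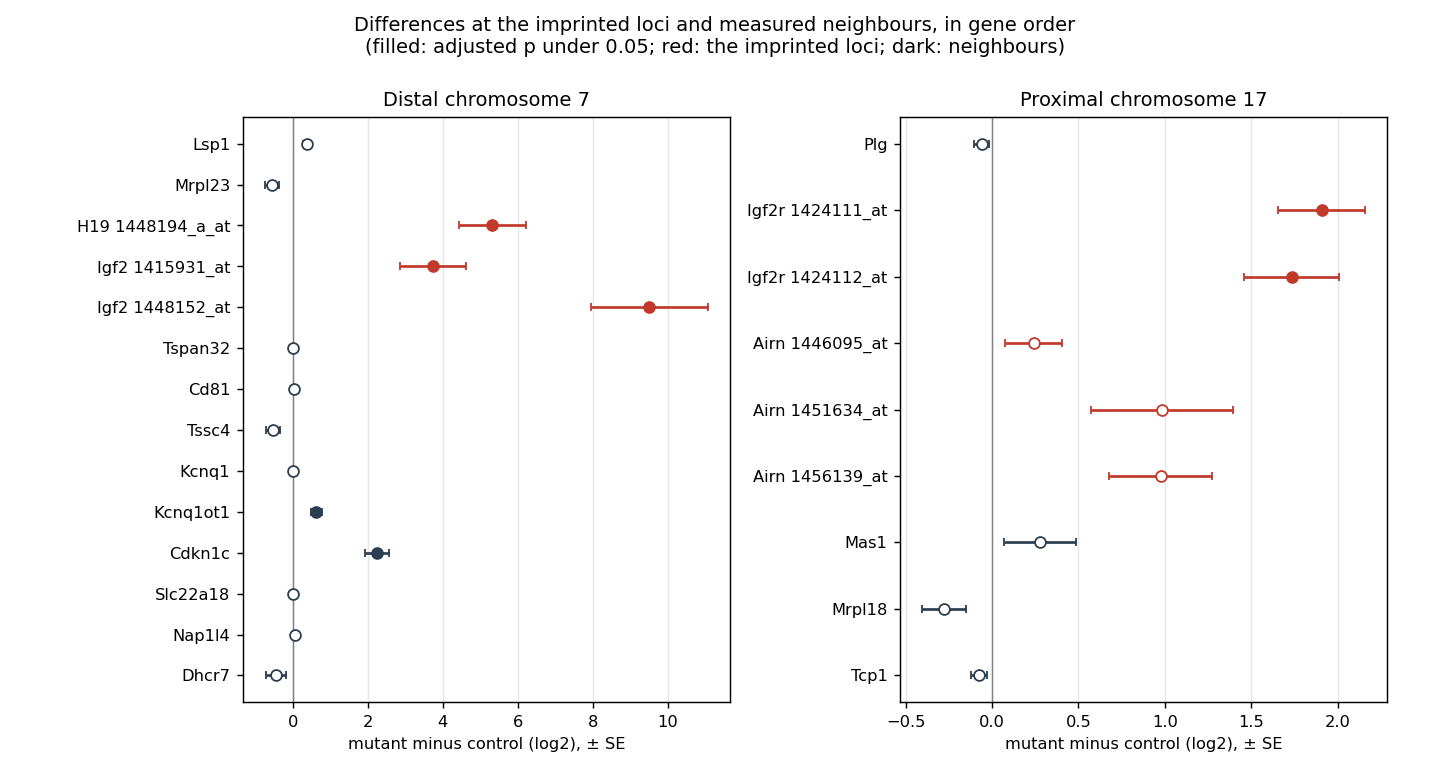
Mutant minus control difference (log2, horizontal axis) with its SE for each member probe set (red) and each measured listed neighbour (dark), in gene order down the page, filled where the adjusted p was under 0.05. On distal chromosome 7 the H19 and Igf2 differences, from 3.74 to 9.52, stand between neighbours whose differences lie from -0.56 to 2.24, and on proximal chromosome 17 the 4 neighbours lie between -0.28 and 0.28.

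The genes that carry or transmit the IGF2 signal were examined next. For the counts of this and all later lists, 7.29% of all 12366 genes rose and 9.56% fell. Of 8 measured ligand, receptor and adaptor genes, 3 rose and 0 fell, with a median difference of 0.09, and 1 fell without control replicate 2. Igf1, the postnatal liver growth factor and paralog of Igf2, had levels of 13.87 ± 0.09 in mutant and 13.83 ± 0.24 in control livers (SD, n = 5 each, difference 0.04, limma adjusted p = 0.878) on its brightest probe set, and differences over its 4 probe sets ran from -0.55 to 0.07. Igf1r, the receptor that signals for IGF2, had a difference of 0.02 and Insr, the insulin receptor, a difference of 0.08, and neither passed.

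The 3 that rose act just inside the receptors. Grb10, an imprinted adaptor that restrains them, ran from 8.71 to 12.45 in mutant and from 6.96 to 7.39 in control livers (difference 3.58, limma adjusted p = 0.00883). On its other probe set the difference was 1.36. Irs1 and Irs2, insulin receptor substrates, rose by 0.59 (limma adjusted p = 0.0200) and 1.16 (limma adjusted p = 0.0459). The Irs1 call was lost without mutant replicate 4 (adjusted p = 0.0513), and the Irs2 call held only without control replicate 3 (adjusted p up to 0.104 otherwise).

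Binding proteins hold IGF2 in plasma and tissue. Of 8 measured, 2 rose and 0 fell, with a median difference of 0.23, and 1 fell without mutant replicate 2. Igfals, the acid-labile subunit of the circulating complex, ran from 10.56 to 11.02 in mutant and from 9.86 to 10.45 in control livers (difference 0.69, limma adjusted p = 0.0129). Igfbp7 rose by 0.38 (limma adjusted p = 0.0474), a call that held only without mutant replicate 5 among the fits that left out 1 array (adjusted p up to 0.106 otherwise). Igfbp1 (0.87) and Igfbp2 (-0.77) had larger differences that did not pass (limma adjusted p = 0.240 and 0.114). Of the RNA-binding and regulatory genes listed for Igf2 mRNA, Igf2bp3 (0.20) and Hmga2 (0.01) were measured and 0 passed by limma, with 0 at an unadjusted p under 0.05. Hmga2 stayed under 3.60 on all arrays, from 2.78 to 2.86.

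Igf2r also serves the mannose 6-phosphate route to the lysosome, and of 18 measured genes, 2 rose and 0 fell, with a median difference of -0.04. Over all genes 7.29% rose, 9.56% fell and the median was -0.01. M6pr, the smaller mannose 6-phosphate receptor, had levels of 11.03 in mutant and 11.18 in control livers on average (difference -0.15, limma adjusted p = 0.100). The lysosomal proteases Ctsl and Ctsb rose by 0.33 and 0.41 on their brightest probe sets (limma adjusted p = 0.0301 and 0.0476). Differences ran up to 0.62 over the 2 probe sets of Ctsl and up to 1.11 over the 5 of Ctsb. On the brightest probe sets each call was lost in most fits that left out 1 array (7 of 10 for Ctsl and 9 of 10 for Ctsb, adjusted p up to 0.0703 and 0.104). Macrophages also express both, and 5 of 10 macrophage markers rose, a count that ran from 0 to 5 in fits that left out 1 array. The part of macrophages in the Ctsl and Ctsb differences was not tested. Without mutant replicate 5, 2 genes of the list rose and 3 fell, and without any of 7 other arrays (control replicates 2 to 4 and mutant replicates 1 to 4) 0 passed, as again counted by limma.

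Regulators of imprinted and fetal loci were measured for 17 genes, of which 4 rose and 0 fell, with a median difference of 0.35. The de novo DNA methyltransferases Dnmt3a and Dnmt3b rose by 0.93 (limma adjusted p = 0.00484) and 0.92 (limma adjusted p = 0.0204). Plagl2, a zinc finger gene of the family that activates Igf2, rose by 1.07 (limma adjusted p = 0.0179) on its brightest probe set, while 1 of its 3 probe sets had a difference of -0.09. Tet2, which oxidises methylcytosine, rose by 0.35 (limma adjusted p = 0.0259) on its brighter probe set, while the other differed by -0.08. This was a call lost in 6 of 10 fits that left out 1 array, those without 1 of control replicates 1, 3 and 5 or of mutant replicates 1, 2 and 4, with adjusted p up to 0.0632. Ctcf, whose protein insulates Igf2 from the enhancers on the maternal allele, had a difference of -0.02, Zhx2, a postnatal repressor of H19 and Afp, one of -0.05, and Dnmt1, the maintenance methyltransferase, one of -0.06, and these 3 did not pass.

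Among 12 measured genes of the fetal liver, 5 rose and 0 fell, with a median difference of 0.94. The number that rose was 4 to 6 in fits that left out 1 array. Afp ran from 8.50 to 14.91 in mutant and from 5.43 to 8.13 in control livers (difference 5.90, limma adjusted p = 0.0159). Its lowest mutant was replicate 5, at 8.50, and its highest control was replicate 1, at 8.13, the same arrays as for Igf2 and H19. Gpc3, a proteoglycan that binds growth factors, ran from 5.84 to 8.76 in mutant and from 3.52, which is under 3.60, to 4.86 in control livers (difference 3.25, limma adjusted p = 0.00873). Control replicate 1 was within the range of the other controls at 4.50. Mutant replicate 5 was also the lowest mutant for Gpc3 (5.84), Prom1 (8.54) and Sox4 (7.87). It was not the lowest for Tspan8, the remaining gene that rose (4.51, against a lowest mutant of 4.14). Over the 3 probe sets of Tspan8 the differences ran from -0.003 to 1.12. The Sox4 call was lost in 8 of 10 fits that left out 1 array (limma adjusted p up to 0.100).

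Among 20 measured imprinted genes outside the pair of loci, 8 rose and 1 fell, with a median difference of 0.44. Meg3, the noncoding RNA of the chromosome 12 domain, ran from 10.45 to 13.50 in mutant and from 4.04 to 7.97 in control livers (difference 7.26, limma adjusted p = 0.00415), with mutant replicate 5 as the lowest mutant and control replicate 1 as the highest control. Peg3, a paternally expressed zinc finger gene, rose by 2.49 (limma adjusted p = 0.0195), and here control replicate 1, at 8.14, was the lowest control. Of the imprinted genes listed, Gnas fell, by 0.31 (limma adjusted p = 0.00778), on 1 of its 2 probe sets, and the other differed by 0.20. The list includes Cdkn1c and Grb10, already described. Impact, Rian, Mirg and Ndn also rose. Rian and Mirg lie in the same domain as Meg3, so the count is not of separate loci. Of 10 fits that left out 1 array, the call was lost in 6 for Rian, 7 for Mirg and 7 for Ndn. The number that rose was 11 without mutant replicate 5, 5 without control replicate 3 or 4 or mutant replicate 4, and 6 to 8 without any other array.

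**Figure D4:**
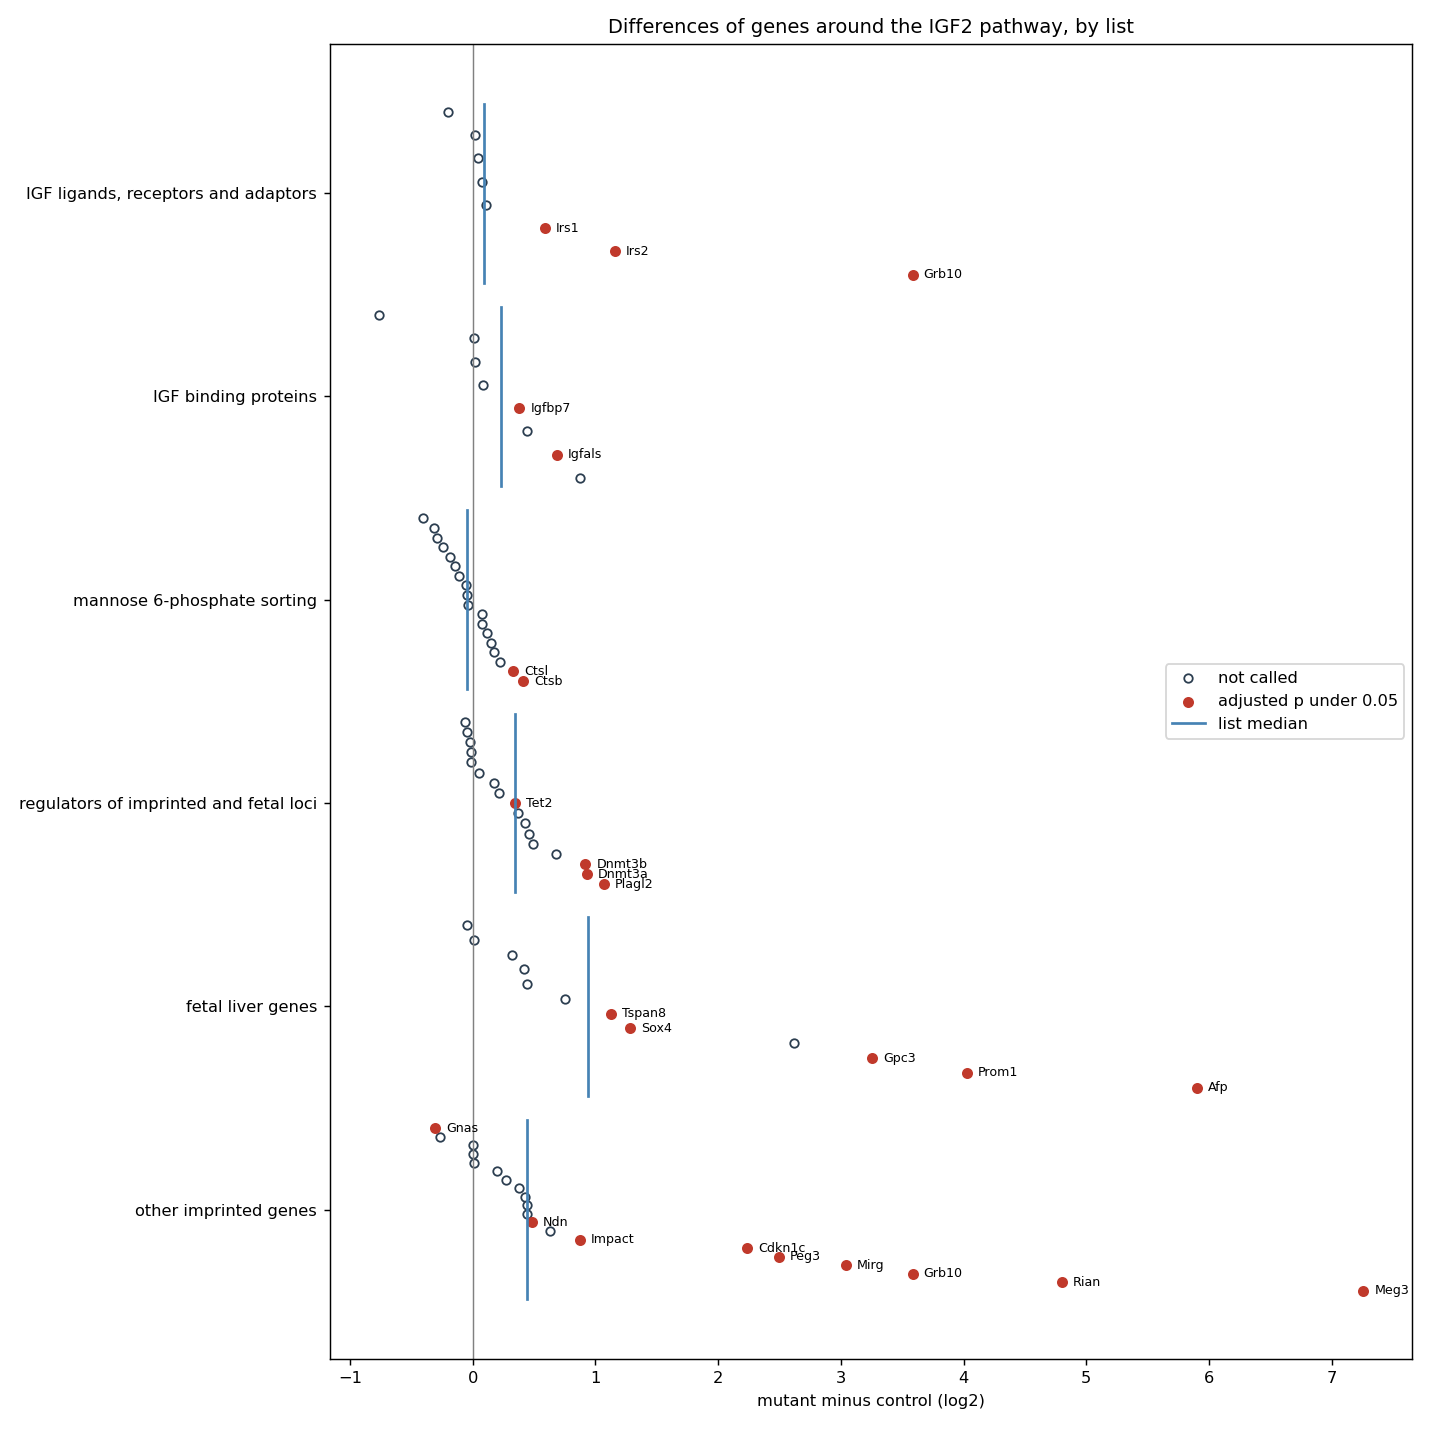
Mutant minus control difference (log2, horizontal axis) of each measured gene of 6 lists around IGF2, 1 point per gene, red and named where the adjusted p was under 0.05, with the list median as a blue line. The mannose 6-phosphate list has a median of -0.04, and the fetal and other imprinted lists extend to 5.90 (Afp) and 7.26 (Meg3).

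Markers of liver cell types were read beside these results, since Igf2 is also made by mesenchymal cells. The shares to set beside their counts are 7.29% of all genes that rose and 9.56% that fell. Hepatocyte markers had 0 of 7 genes called by limma, with 1 at an unadjusted p under 0.05, and a mean log2 level of 14.88 to 15.17 in mutant and 14.90 to 15.21 in control livers. Apoa1, Ttr and Alb averaged 16.44, 16.31 and 16.20 in control livers, near the highest value on any array, 16.65, where differences can be compressed. Stellate and mesenchymal markers had 3 of 9 genes higher and a mean level of 9.58 to 10.06 in mutant and 9.10 to 9.40 in control livers, and 6 were higher without mutant replicate 5, against 1 without control replicate 4 or mutant replicate 1, 2 or 4. Kupffer cell and macrophage markers had 5 of 10 genes higher and a mean level of 10.02 to 10.54 in mutant and 9.001 to 9.98 in control livers. Their count was 0 without mutant replicate 4, 1 without mutant replicate 1, 2 without mutant replicate 2 or control replicate 1 or 5, and 4 or 5 without any other array.

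Cholangiocyte and progenitor markers had 1 of 6 genes higher, Prom1 (difference 4.03, limma adjusted p = 0.0175). Their mean level, which includes Prom1, did not overlap between the groups, at 4.87 to 5.74 in mutant and 3.97 to 4.50 in control livers. The other genes did not pass, with differences of 0.81 (Krt7), 0.32 (Krt19), 0.23 (Sox9), -0.04 (Epcam) and -0.09 (Cftr). Prom1, Krt7, Krt19 and Cftr lay under 3.60 on some arrays. Endothelial markers had 1 of 8 genes lower, Lyve1, where 9.56% of all genes fell. The Lyve1 call was lost without any 1 of control replicates 3 to 5 and mutant replicates 1 and 2 (adjusted p up to 0.0581). The count of endothelial markers called lower was 2 without mutant replicate 5 and 3 without both mutant replicate 5 and control replicate 1. Erythroid markers had 1 of 5 genes higher, Car2 (0.57), with a list median of -0.08. The other erythroid genes did not pass, with differences of -1.02 (Klf1), -0.53 (Alas2), -0.08 (Tfrc) and 0.01 (Gata1, under 3.60 on all arrays). Mesothelial markers had 0 of 5 called by limma, with 0 at an unadjusted p under 0.05. Of 12 cell cycle genes 1 rose, Ccnd1, by 1.73 (limma adjusted p = 0.0189). In control replicate 1, where Igf2 was highest among controls, the mesenchymal markers had the lowest mean of all arrays (9.10) and the cell cycle list likewise (5.69). This array was also the lowest of all on other lists, among them the mesothelial markers (4.26), the regulators (6.68) and the IGF ligands, receptors and adaptors (8.75). It was the highest of all on the hepatocyte markers (15.21). Neither the mix of cells in this array nor the part of these cell types in the Igf2, H19 and Igf2r differences was tested.

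Genes whose levels followed each member within the groups were named by the correlation of deviations from group means over 10 arrays, among 6365 genes. For Igf2 on its brighter probe set these were Slc37a4 (0.89), Trim12c (0.87), Uap1 (0.86), Slain2 (0.85) and Setdb2 (0.84). For H19 they were Uap1 (0.90), Tox (0.87), Setdb2 (0.86), Rspry1 (0.85) and Slc37a4 (0.83), so that Uap1, Setdb2 and Slc37a4 appear for both. Each of these correlations was below that of Igf2 with H19. Without the 2 arrays farthest on the member they ran from 0.46 to 0.83 for Igf2 (control replicates 1 and 2 left out) and from -0.03 to 0.70 for H19 (control replicates 1 and 4 left out). Of these 7 genes only Trim12c passed the test between groups (difference 2.52, limma adjusted p = 0.0425).

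For Igf2r on 1424112_at the genes were Uba6 (0.96), an E1 enzyme of the ubiquitin system, the kinase gene Wnk1 (0.96), Atad2b (0.96), Afp (0.95) and the kinase gene Jak1 (0.95). Without mutant replicate 5 and control replicate 4 these correlations ran from 0.71 to 0.93. Wnk1, Atad2b and Afp also passed the test between groups, with differences of 0.67, 0.38 and 5.90, while Uba6 (0.72) and Jak1 (0.30) did not. These correlations are descriptions over arrays that share a normalization.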

How the data were processed

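Liver RNA of 10 mice was amplified with a biotin label and hybridised to arrays, per the labels' protocols. The values are on a log2 scale as deposited by the authors, 1 value for each probe set and array, with the log base read from the values. How background was corrected, probes were summarised and arrays were scaled is not given in the labels. Groups and replicate numbers came from the sample titles. Of 25995 probe sets, 37 array controls were left out, and 21613 of the others had 1 gene symbol, 638 several and 3707 none in the platform annotation. The moderated two-sided test of limma 3.58.1 (lmFit, then eBayes, under R 4.3.3) was run on all 25958 probe sets, over which p-values were adjusted by Benjamini-Hochberg. The smallest p of the exact permutation test used as an alternative is 0.00794. Precision is limited by 5 arrays in each group.

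The members and gene lists were chosen with earlier results of these data known. The rule for members asked for 1 symbol. The H19 probe set carries 2 and was kept, because Mir675 lies inside H19. Genes of lists are represented by their probe set with the highest mean, and differences on other probe sets are given for some genes only. Named genes were the members, Dicer1, neighbours, up to 6 genes of each list with the smallest p, and the 5 genes that followed each called member most closely (higher group mean at or above 7.63, no clone name). Ctcf, Zhx2, Dnmt1, Igf1, Igf1r, Tspan32, Rian, Mirg and Ndn fall outside this rule. They were named for their role, position or call after their values were seen. The fit had first been tested on simulated data with known changes. Alternatives were other scalings, a filter and a floor at the 25th percentile, eBayes options, array weights, a replicate block and leaving out arrays. Those for gene lists and list genes were chosen after seeing the data. Gene order came from RefSeq on GRCm38.p6, and no build is named for the arrays.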

Additional observations from a re-analysis of the deposited data

Results flagged for a closer look

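Within the groups, 20 sets of 5 values were examined for an array far from the others, for which chance gives about 1 in 20, and 4 stood out. Mutant replicate 5 was low for Igf2 on 1448152_at (13.64, against 15.07 to 15.49 in the other mutants). It was also low for Igf2r on both probe sets, at 9.306 on 1424112_at and 8.01 on 1424111_at, where the other mutants lay from 10.50 to 10.84 and from 8.99 to 9.31. Mutant replicate 3 was high for Airn on 1446095_at (4.111, against 3.17 to 3.44). Control replicate 1 did not meet the criterion for Igf2 or H19.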

How the results depend on the processing

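The increases of the brighter Igf2 probe set, of H19 and of both Igf2r probe sets kept their direction and their call under every alternative limma fit. The limma adjusted p was at most 0.0280 for Igf2, 0.0281 for H19 and 0.0336 and 0.0257 for Igf2r. The exact permutation test gave each its smallest possible p, 0.00794. That value is unadjusted and follows from groups that do not overlap, so it does not bear on the call. When each array was left out in turn, the differences ran from 8.85 to 11.01 for Igf2 on 1448152_at, from 4.82 to 6.196 for H19, from 1.62 to 2.005 for Igf2r on 1424112_at and from 1.78 to 2.13 on 1424111_at. For Igf2 on 1415931_at they ran from 3.26 to 4.64, with the call lost in 9 of 10. For Airn they ran from 0.82 to 1.24 on 1456139_at, 0.07 to 0.31 on 1446095_at and 0.62 to 1.17 on 1451634_at. The 1456139_at difference was called with each array minus its 75th percentile (1.004), without dim probe sets (0.98), with array weights (1.07), with 1 probe set for each gene (0.98), and without control replicate 1 and mutant replicate 5 (1.19). It was also past 0.05 by the exact permutation test, unadjusted (p = 0.0317), as was 1451634_at (0.98, exact p = 0.0397). Fewer tests or fewer arrays enter some of these by construction, and otherwise the cause was not tested.

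The labels do not say that replicate numbers pair animals, and the main fit treated the samples as unpaired. The correlations of same-numbered deviations were -0.19 to 0.15, which cannot decide whether same-numbered samples were paired. With the replicate block the Igf2 difference stayed 9.52 (limma adjusted p = 0.0280), the member calls were as before, and 907 probe sets were higher, against 1505 without it. Leaving out 1 array gave 776 (without mutant replicate 4) to 2115 (without mutant replicate 5) higher and 770 to 3194 lower (the same arrays), against 1505 and 1917. Without control replicate 1 and mutant replicate 5 together, 2980 were lower. No value of H19 exists with 1 probe set for each gene, since its probe set has 2 symbols.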
